A study of Homo sapiens with 9 samples.

Results

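The extracellular matrix is the meshwork of collagens, laminins, proteoglycans and glycoproteins that cells secrete around themselves. Cells hold on to it through integrins, receptors built of an alpha and a beta chain, and remodel it with metalloproteinases and ADAMTS proteases, which the TIMP proteins inhibit. In the liver the hepatocytes make fibronectin and some basement membrane proteins, whereas most fibrillar collagen comes from stellate cells, and the matrix of a tumor helps to set how its cells attach and invade.

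Matrix and adhesion genes were followed in HepG2 cells in which the long noncoding RNA *TUG1* was silenced. HepG2 is an established liver tumor line, which the study treats as hepatocellular carcinoma, here grown in low-glucose DMEM with fetal bovine serum. The genes are the rows of both deposited count tables whose symbol matches COL, digits, A and digits, or LAMA, LAMB, LAMC, MMP or TIMP with a digit, or starts with ITGA, ITGB, ADAMTS or THBS, together with *FN1*, *SPARC*, *HSPG2*, *AGRN* and *CEMIP*. This rule gave 60 genes of the 12854 listed in both tables, out of 13017 in the table of sh1-*TUG1* and 12953 in that of sh2-*TUG1*. By name they are 13 collagens, 8 laminins and basement membrane proteoglycans, 4 adhesive glycoproteins, 10 integrin alpha and 4 beta chains, 8 genes named for metalloproteinases, 7 of the ADAMTS and ADAMTSL family, 3 TIMP genes and *CEMIP*. The other 2, *ITGB1BP1* and *ITGB3BP*, encode no integrin chain, and *MMP24OS* is a gene on the opposite strand of *MMP24*.

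All 3 groups were HepG2 cells that carried a lentiviral, doxycycline-inducible Tet-pLKO-Puro hairpin. The sh-Con cells carried a control hairpin (their genotype label is WT), and sh1-*TUG1* and sh2-*TUG1* cells carried 1 of 2 hairpins against *TUG1*. Each hairpin is represented by 1 established line and 3 libraries, which the study calls technical replicates, so SDs and p-values measure only the spread between these libraries. The same 3 sh-Con libraries served both comparisons. *TUG1* itself was not analysed here, so the labels were not checked against it. Libraries held 33051617 to 39393293 counts over the genes of a table. Levels are CPM, counts scaled to the library total, after TMM scaling of all 9 libraries together, given in the order of replicates 1, 2 and 3. Adjusted p-values are Benjamini–Hochberg values of edgeR's quasi-likelihood test over all genes of the comparison, and SE is the standard error of the log2(fold change). A gene was called at an adjusted p under 0.05, and was a DEG where the fold change was also over 1.5.

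The cells carried the hepatocyte program that the label implies. All 9 hepatocyte markers looked for were present, with a summed level of 39999 to 41671 CPM in sh-Con, 44509 to 45962 CPM in sh1-*TUG1* and 48692 to 51004 CPM in sh2-*TUG1* libraries. The sum followed *ALB*, with means of 13505, 18457 and 25387 CPM, whereas 6 of the 9 markers had a lower mean in sh2-*TUG1* than in sh-Con, such as *TF* with 7411, 4717 and 5239 CPM. Of 8 stellate cell or fibroblast markers only *PDGFRB* and *ACTA2* were listed, with a sum of 56.2 to 60.6, 75.4 to 80.7 and 87.9 to 93.4 CPM in the 3 groups. Their means were 20.9, 32.8 and 56.6 CPM for *PDGFRB* and 36.96, 44.6 and 33.4 CPM for *ACTA2*, which was thus lowest in sh2-*TUG1*, and *DCN*, *LUM*, *COL1A2* and *COL3A1* were not in the tables. Of 5 endothelial markers *PECAM1* and *VWF* were listed, with a sum of 8.75 to 9.46, 11.3 to 12.2 and 12.2 to 13.6 CPM. The part of other cell types in the results below was not tested.

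*FN1*, which encodes fibronectin, dominated these genes. It held 71.3% to 77.2% of their counts, and together the 60 genes held 1.59% to 1.78% of all counts. Scaled to the length of exon sequence, the level of *FN1* in sh-Con was 674 ± 32.6 CPM per kb (SD, n = 3), followed by *ITGB1*, the shared beta chain of most matrix-binding integrins, with 145 ± 4.16 CPM per kb. The next 3 genes, *ITGA2* with 42.2 ± 1.11, *LAMB2* with 42.2 ± 0.619 and *ITGA6* with 41.5 ± 1.19 CPM per kb, did not differ from each other beyond their spread. The lowest levels were those of ADAMTS genes and of integrin chains known from other tissues, such as *ADAMTS6* with 0.131 ± 0.0301 and *ITGA7* with 0.195 ± 0.0304 CPM per kb.

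**Figure D1:**
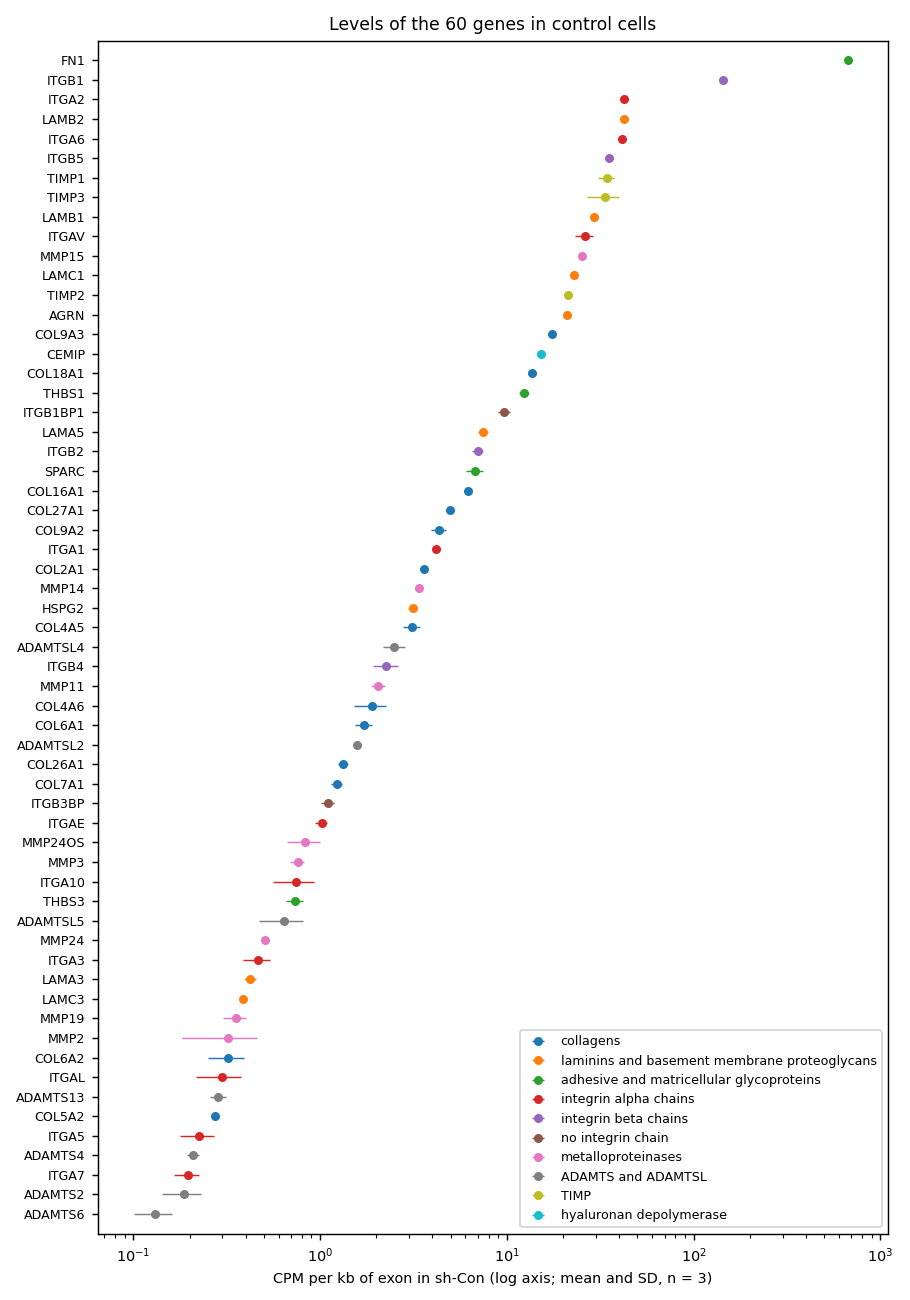
Level of each of the 60 genes in sh-Con cells, as CPM per kb of exon sequence on a log axis (points are means and bars SDs of 3 libraries, colors mark the gene group). *FN1* stands at 673.8 CPM per kb, far to the right of *ITGB1* at 144.6, and the ADAMTS genes lie mostly near the bottom of the order.

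The question of each comparison was which of these genes changed when *TUG1* was silenced. In sh1-*TUG1* cells, 10 of the 60 genes exceeded sh-Con and 11 fell below it by the test, against 12.5% higher and 12.3% lower among all 13017 genes tested. DEGs were 4 in number, *LAMA5* and *MMP11* higher and *CEMIP* and *COL7A1* lower, where 4.96% of all genes were DEGs (2.44% higher and 2.52% lower). Their median log2(fold change) over all 60 was 0.00076, beside 0.0027 for all genes. Libraries of sh1-*TUG1* lay wholly above sh-Con for 12 of them and wholly below for 15, against 21.3% and 20.2% of all genes (41.5% in either direction). Of the 60, sh2-*TUG1* cells had 10 genes higher and 30 lower, against 21.6% and 21.9% of all 12953 genes. Of the 22 DEGs there, 20 were lower, where 8.97% of all genes were lower DEGs and 4.35% higher DEGs, and the median log2(fold change) was −0.33 beside −0.0048 for all genes. The 3 knockdown libraries lay wholly above sh-Con for 10 genes and wholly below it for 35, against 27.1% and 27.3% of all genes (54.4% in either direction). Among genes with a mean of at least 5 CPM, sh2-*TUG1* had 9 of 39 higher and 22 lower, beside 2602 and 2314 of 10553 genes of that level. In bulk RNA, fewer cells with a transcript and less of it per cell cannot be told apart.

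Compared directly, sh2-*TUG1* was lower than sh1-*TUG1* for 29 of the 60 genes and higher for 8, against 21.7% and 21% of the 12854 genes tested (42.7% in either direction). The lines did not overlap for 29 genes lower and 9 higher in sh2-*TUG1*, where 27.6% and 27.8% of all genes did so (55.4% in either direction). Here 20 genes were lower DEGs and 3 higher DEGs, where 8.04% and 2.56% of all genes were. By direction, 8 genes were called lower in both lines, 5 higher in both, and 4 higher in sh1-*TUG1* and lower in sh2-*TUG1*. A further 18 were called lower in sh2-*TUG1* alone, 5 higher in sh2-*TUG1* alone, 3 lower and 1 higher in sh1-*TUG1* alone, and 16 in neither line. Both lines were compared with the same sh-Con libraries, and the shares of all genes in these joint classes were not counted. The count of higher genes rested in part on single libraries, being 5 in sh1-*TUG1* without its replicate 2 and 6 in sh2-*TUG1* without its replicate 2.

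**Figure D2:**
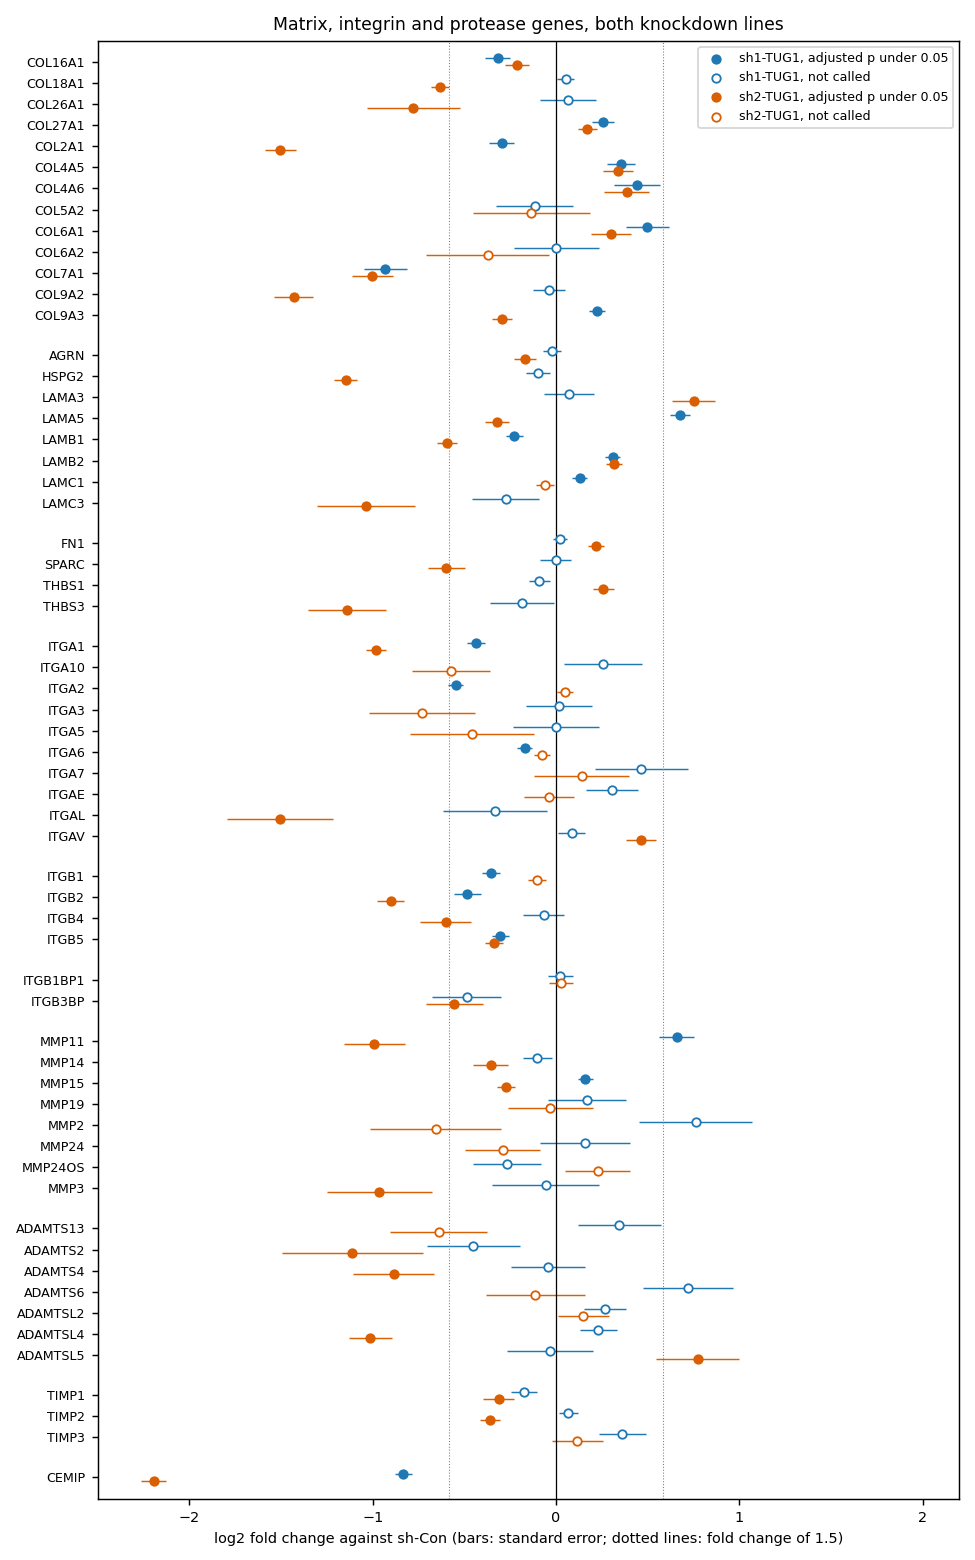
Log2(fold change) of the 60 genes against sh-Con in sh1-*TUG1* (blue) and sh2-*TUG1* (orange), grouped by gene family (bars are SEs, filled points have an adjusted p under 0.05, dotted lines mark a fold change of 1.5). Filled orange points lie left of 0 for 30 genes and right of it for 10, and filled blue points for 11 and 10.

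The largest change among the 60 genes was that of *CEMIP* (chr15:80779343-80951776, plus strand, GRCh38), whose product depolymerizes hyaluronan, the large sugar polymer of the matrix. *CEMIP* had 119.8, 116 and 113 CPM in the sh-Con libraries, 66.5, 64.8 and 64.5 CPM for sh1-*TUG1*, and 23.2, 27.03 and 26.05 CPM for sh2-*TUG1*. The 3 groups were fully apart, with sh1-*TUG1* between sh-Con and sh2-*TUG1*. The log2(fold change) was −0.83 (SE 0.0469, adjusted p = 3.57e-06) in sh1-*TUG1* and −2.20 (SE 0.0681, adjusted p = 1.38e-07) in sh2-*TUG1* by edgeR's quasi-likelihood test, and so *CEMIP* fell by 43.9% and 78.2%, and sh2-*TUG1* lay below sh1-*TUG1* with −1.36 (SE 0.0602, adjusted p = 7.65e-08). Its exons share 224 bases with *MESD* on the other strand, a chaperone gene whose log2(fold change) was −0.24 and −0.089. The 120 bases upstream of the *CEMIP* start in RefSeq are printed, since its promoter is among the few of these genes to hold a TATA box.

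*CEMIP* upstream stretch, chr15:80779250-80779369 (GRCh38.p14, plus strand), TATA box in capitals:
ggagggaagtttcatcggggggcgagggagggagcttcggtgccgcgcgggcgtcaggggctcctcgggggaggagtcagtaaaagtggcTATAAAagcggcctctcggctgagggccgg

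Of the 60 genes, 44 had a RefSeq promoter entry (250 bases upstream of the start), and 5 of these, or 11.4%, held the letters TATAAA on either strand, as did 4.9% of the 9354 promoters of genes in both tables and 11.1% of all 27305 promoters. The letters GGGCGG, a GC box, stood in 75% of the 44 promoters, in 68.2% of those of the tables and in 42.3% of all. The letters CCAAT were less frequent among the 44, with 25%, than in the tables, with 35.2%. The letters of a hypoxia response core, ACGTG, were in 4 of the 44, or 9.09%, beside 23.6% in the tables. A match is a description of letters and not of a factor's binding.

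Among the collagens, sh1-*TUG1* cells had 5 of 13 higher and 3 lower, and sh2-*TUG1* cells had 4 higher and 7 lower. Of all genes tested, 12.5% were called higher and 12.3% lower in sh1-*TUG1*, and 21.6% and 21.9% in sh2-*TUG1*. The largest falls in sh2-*TUG1* were those of *COL2A1*, *COL9A2* and *COL7A1*. In sh1-*TUG1* they were those of *COL7A1*, *COL16A1* and *COL2A1*. The listed chains of type IV collagen rose in both lines. *COL7A1*, which encodes the collagen of the anchoring fibrils under epithelia, had 13.1, 14.6 and 12.97 CPM in the sh-Con libraries, 6.21, 7.45 and 7.67 CPM for sh1-*TUG1*, and 7.48, 6.23 and 6.63 CPM for sh2-*TUG1*. Both knockdown lines lay wholly below sh-Con and overlapped each other. The log2(fold change) was −0.93 (SE 0.116, adjusted p = 0.000443) in sh1-*TUG1* and −1.003 (SE 0.112, adjusted p = 0.000113) in sh2-*TUG1*, and the lines differed by −0.07 (SE 0.121, adjusted p = 0.672, edgeR).

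*COL2A1*, the main fibrillar collagen of cartilage, had 23.5, 25.1 and 23.7 CPM in the sh-Con libraries, 20.2, 18.8 and 19.9 CPM for sh1-*TUG1*, and 8.31, 9.099 and 8.14 CPM for sh2-*TUG1*. The groups did not overlap, and the fall was small in sh1-*TUG1* and large in sh2-*TUG1*, with log2(fold change) values of −0.30 (SE 0.0678, adjusted p = 0.0114) and −1.50 (SE 0.0838, adjusted p = 1.71e-06). *COL9A2*, a chain of the type IX collagen that coats cartilage fibrils, had 19.5, 16.3 and 18.9 CPM in the sh-Con libraries, 17.7, 18.8 and 16.8 CPM for sh1-*TUG1*, and 6.98, 7.06 and 6.27 CPM for sh2-*TUG1*. Only sh2-*TUG1* stood apart, with a log2(fold change) of −1.43 (SE 0.107, adjusted p = 9.33e-06), while sh1-*TUG1* overlapped sh-Con (−0.04, adjusted p = 0.797). The other chain of type IX collagen, *COL9A3*, went in opposite directions, at 84.5 to 85.7 CPM in the controls, 97.6 to 100.04 CPM in sh1-*TUG1* and 66.3 to 71.9 CPM in sh2-*TUG1* (log2(fold change) 0.22 and −0.30, adjusted p = 0.00596 and 0.00167). With an offset for GC content, a choice made after seeing the data, the value of *COL9A3* in sh1-*TUG1* was 0.13 and not called (adjusted p = 0.0657, edgeR).

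*COL18A1* (chr21:45405137-45513720, plus strand), the basement membrane collagen from which endostatin is cut, had 118, 114 and 116 CPM in the sh-Con libraries, 115, 122 and 123 CPM for sh1-*TUG1*, and 71.9, 77.5 and 74.8 CPM for sh2-*TUG1*. It was lower in sh2-*TUG1* alone, where the log2(fold change) was −0.63 (SE 0.0508, adjusted p = 1.4e-05). Its exons share 1401 bases with *SLC19A1*, a folate carrier gene on the other strand that was also lower in sh2-*TUG1* (log2(fold change) −0.37, adjusted p = 0.00079), and strand use in the counting is not given in the sources used here. *COL26A1* had 3.97, 4.199 and 4.47 CPM in the sh-Con libraries, 4.54, 4.08 and 4.62 CPM for sh1-*TUG1*, and 3.26, 2.54 and 1.61 CPM for sh2-*TUG1*, with all sh2-*TUG1* libraries below sh-Con (log2(fold change) −0.78 (SE 0.253, adjusted p = 0.0315)). That call was lost without sh-Con replicate 2 or 3 or sh2-*TUG1* replicate 2 or 3, with adjusted p = 0.0703 to 0.0835 by edgeR.

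The 2 listed chains of type IV collagen moved the other way. *COL4A5*, a chain of the basement membrane network of kidney and other epithelia, rose in both lines (0.35 and 0.34, adjusted p = 0.00854 and 0.00808), and so did its neighbour *COL4A6* (0.44 and 0.38, adjusted p = 0.03004 and 0.0303). In sh-Con, *COL4A5* was at 32.6 to 40.3 CPM and *COL4A6* at 14.1 to 20.8 CPM, and in the 6 knockdown libraries they were at 45.2 to 48.8 and 22.1 to 24.96 CPM, all above the control range. The 2 genes start head to head on the X chromosome, with 379 bases between their RefSeq starts at 108439838 and 108439458. The middle of that shared stretch is shown because the pair rose together.

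*COL4A5* and *COL4A6* shared upstream stretch, chrX:108439588-108439708 (GRCh38.p14, plus strand), CCAAT letters on either strand in capitals:
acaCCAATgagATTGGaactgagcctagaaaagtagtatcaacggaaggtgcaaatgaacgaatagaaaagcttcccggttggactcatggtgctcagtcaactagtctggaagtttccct

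*COL6A1*, a chain of the beaded-filament collagen, and *COL27A1*, a fibrillar collagen, were also called higher in both lines, *COL6A1* with 0.50 and 0.30 (adjusted p = 0.0126 and 0.04997) and *COL27A1* with 0.26 and 0.17. *COL16A1*, which associates with fibrils, was called lower in both (−0.32 and −0.21). In sh2-*TUG1* these small changes depended on single libraries. The call of *COL6A1* was lost without any 1 library except sh-Con replicate 1 (adjusted p = 0.0738 to 0.141), that of *COL27A1* without sh-Con replicate 2 or 3 or sh2-*TUG1* replicate 1 or 2 (0.0584 to 0.0779), that of *COL4A6* without sh-Con replicate 3 or any sh2-*TUG1* replicate (0.0634 to 0.0781), and that of *COL16A1* without sh-Con replicate 2 or sh2-*TUG1* replicate 2 or 3 (0.0515 to 0.0937). In sh1-*TUG1*, *COL4A6* was not called without sh-Con replicate 3 or sh1-*TUG1* replicate 1 or 2 (0.0641 to 0.0983), *COL6A1* not without sh1-*TUG1* replicate 2 or 3 (0.0504 and 0.0555) and *COL27A1* not without sh1-*TUG1* replicate 2 (0.0584). *COL5A2* and *COL6A2*, both at or under 2.83 CPM in every library, were called in neither line.

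**Figure D3:**
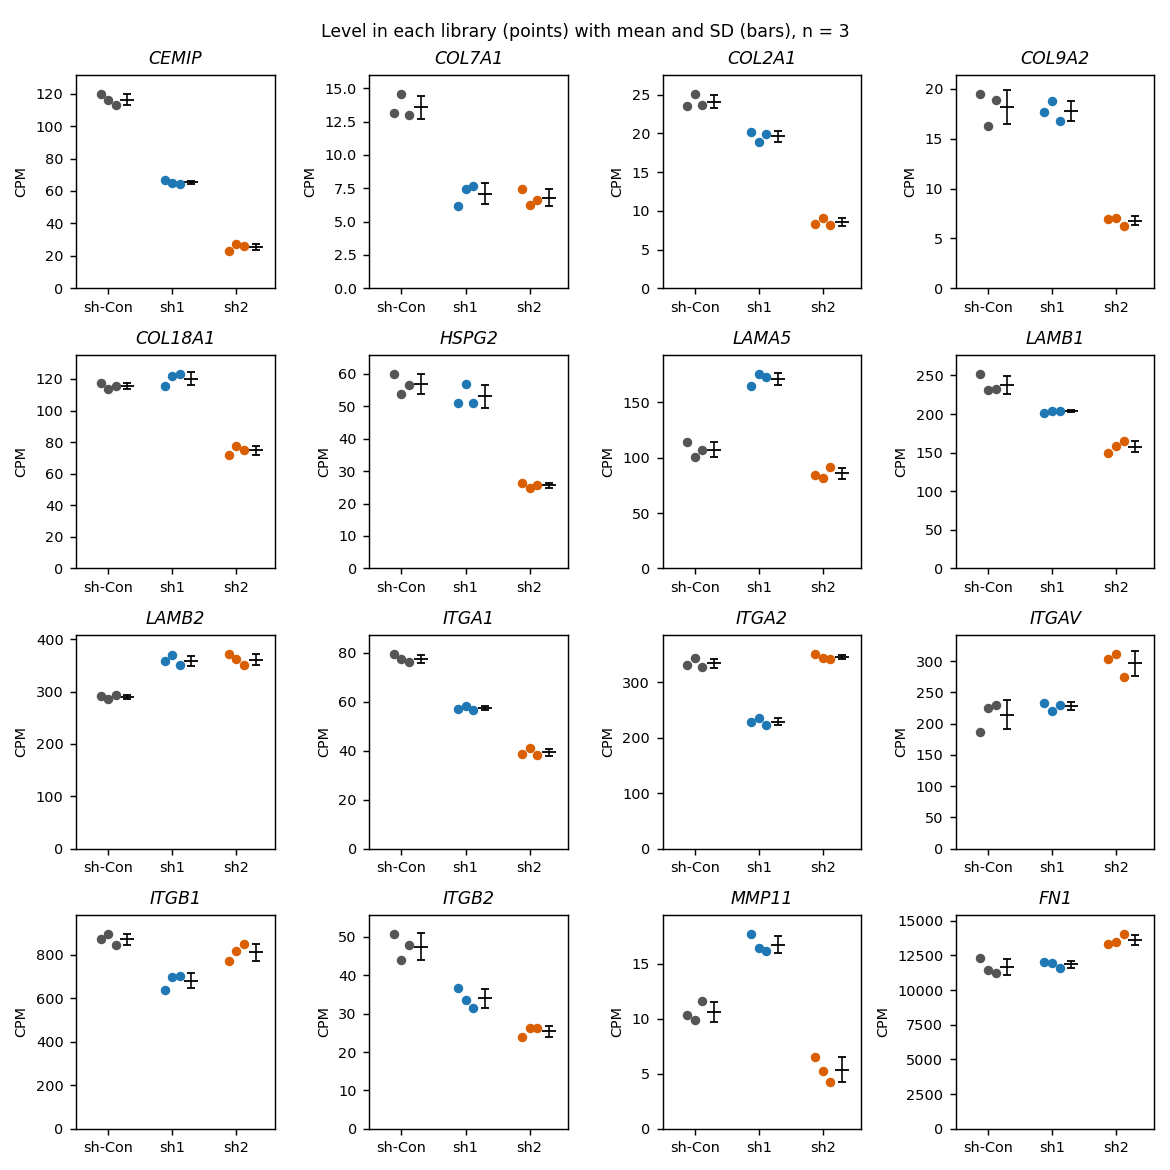
CPM in each of the 9 libraries (points; vertical axes start at 0) with the mean and SD of 3 libraries for 16 of the genes. *CEMIP*, *COL2A1*, *ITGA1* and *ITGB2* step down from sh-Con to sh1-*TUG1* to sh2-*TUG1*, *LAMA5* and *MMP11* are highest in sh1-*TUG1* and lowest in sh2-*TUG1*, and *ITGA2* is lowest in sh1-*TUG1*.

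Laminins are trimers of an alpha, a beta and a gamma chain that form the sheet of the basement membrane. Of the 8 genes of this group, 3 rose and 1 fell in sh1-*TUG1*, where 12.5% of all genes rose and 12.3% fell. In sh2-*TUG1* 2 rose and 5 fell, where 21.6% of all genes rose and 21.9% fell. *LAMA5* (chr20:62307955-62367312, minus strand), the alpha chain of most mature epithelial laminins, had 114, 100.2 and 107 CPM in the sh-Con libraries, 165, 175 and 173 CPM for sh1-*TUG1*, and 84.2, 81.5 and 91.5 CPM for sh2-*TUG1*. All sh1-*TUG1* libraries were above and all sh2-*TUG1* libraries below the controls, and the log2(fold change) was 0.68 (SE 0.0549, adjusted p = 3.67e-05) in sh1-*TUG1* and −0.32 (SE 0.0651, adjusted p = 0.00335) in sh2-*TUG1*. The direct difference between the lines was −0.996 (SE 0.0585, adjusted p = 3.6e-07) by edgeR. *LAMA5* shares 244 exon bases with *ADRM1*, a proteasome receptor gene on the other strand, which was not called in either line (−0.014 and 0.16, adjusted p = 0.923 and 0.137).

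*LAMA3*, the alpha chain of the laminin that anchors epithelia, had 6.31, 5.68 and 6.56 CPM in the sh-Con libraries, 6.12, 6.15 and 7.19 CPM for sh1-*TUG1*, and 10.2, 9.85 and 11.2 CPM for sh2-*TUG1*. It was higher in sh2-*TUG1* with no overlap (log2(fold change) 0.75 (SE 0.118, adjusted p = 0.000829)), and sh1-*TUG1* overlapped the controls (0.07, adjusted p = 0.764). The beta chains parted. *LAMB1* had 252, 231 and 232 CPM in the sh-Con libraries, 202, 204 and 204 CPM for sh1-*TUG1*, and 150.002, 158 and 164 CPM for sh2-*TUG1*, lower in both lines at a log2(fold change) of −0.23 (SE 0.0449, adjusted p = 0.00556) and −0.60 (SE 0.0546, adjusted p = 3.25e-05), whereas *LAMB2* had 292, 285 and 293 CPM in the sh-Con libraries, 358, 369 and 350.005 CPM for sh1-*TUG1*, and 371, 362 and 350.3 CPM for sh2-*TUG1*, higher in both at a log2(fold change) of 0.31 (SE 0.0396, adjusted p = 0.000534) and 0.32 (SE 0.0437, adjusted p = 0.000405). For *LAMB1* the 3 groups did not overlap, and for *LAMB2* the 2 knockdown lines overlapped each other above sh-Con.

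The gamma chain *LAMC1*, which most laminins share, was at 189.7 to 195.7 CPM in the controls, 207.8 to 213.4 CPM in sh1-*TUG1* and 176.8 to 193.8 CPM in sh2-*TUG1*. Its small rise in sh1-*TUG1* (0.13, adjusted p = 0.0423) was not called without any 1 library except sh-Con replicate 1 (adjusted p = 0.0753 to 0.143). The other gamma chain, *LAMC3*, had 3.02, 2.96 and 2.84 CPM in the sh-Con libraries, 2.197, 2.62 and 2.47 CPM for sh1-*TUG1*, and 2.03, 1.197 and 1.09 CPM for sh2-*TUG1*, and was lower in sh2-*TUG1* (−1.04 (SE 0.267, adjusted p = 0.0114)).

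Of the proteoglycans, *HSPG2* (chr1:21822245-21937297, minus strand), which encodes perlecan, had 59.9, 53.8 and 56.6 CPM in the sh-Con libraries, 50.9, 56.9 and 51.1 CPM for sh1-*TUG1*, and 26.3, 24.8 and 25.8 CPM for sh2-*TUG1*. The sh2-*TUG1* libraries stood well below the other 6, which overlapped. The log2(fold change) was −1.15 (SE 0.0621, adjusted p = 1.51e-06) in sh2-*TUG1*, where *HSPG2* fell by 54.9%, and −0.10 (SE 0.0648, adjusted p = 0.299) in sh1-*TUG1*. Agrin, from *AGRN*, had 237, 219 and 224 CPM in the sh-Con libraries, 227, 212 and 232 CPM for sh1-*TUG1*, and 219, 196 and 189.8 CPM for sh2-*TUG1*. Its lower level in sh2-*TUG1* was marginal (−0.17 (SE 0.0615, adjusted p = 0.0473)), and without sh-Con replicate 1, 2 or 3 or sh2-*TUG1* replicate 2 or 3 it was not called (adjusted p = 0.0628 to 0.1497).

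**Figure D4:**
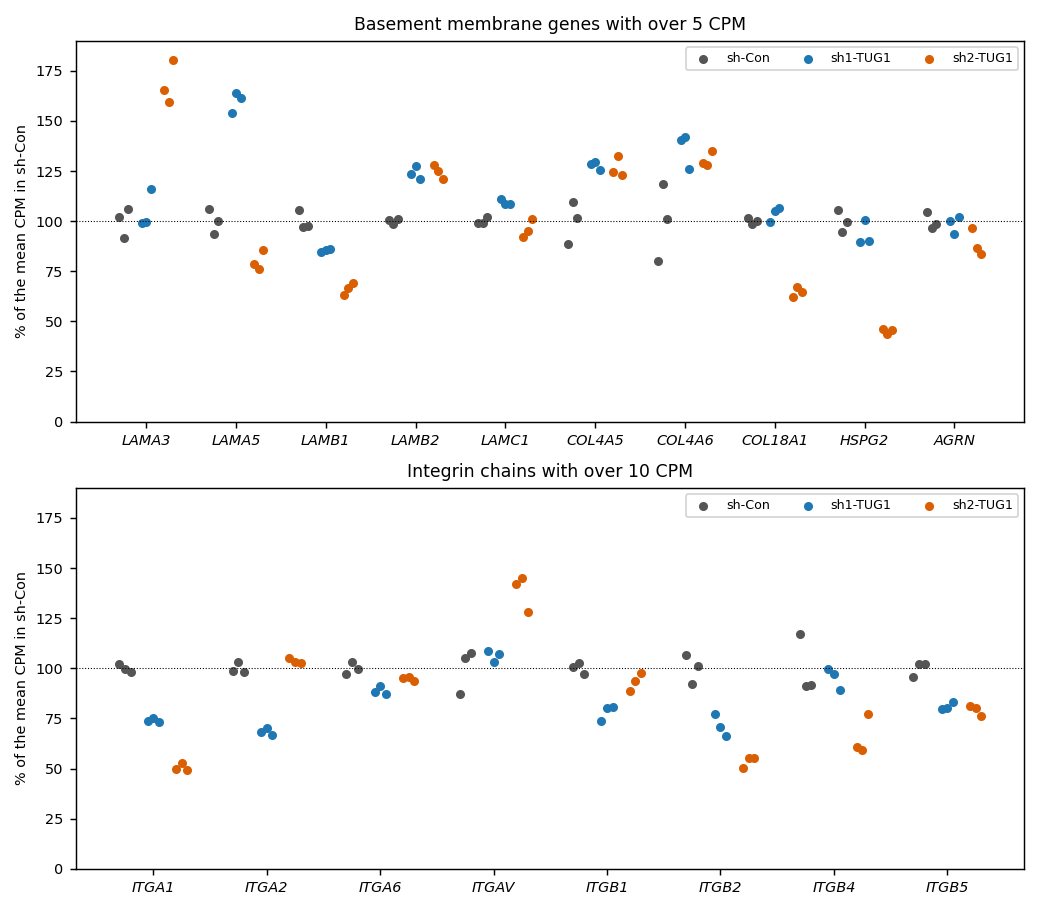
Level in each library as a percentage of the mean CPM in sh-Con, for 10 basement membrane genes (top) and the 8 integrin chains with over 10 CPM in sh-Con (bottom), with sh-Con in gray, sh1-*TUG1* in blue and sh2-*TUG1* in orange. *LAMA5* lies on opposite sides of the control line in the 2 knockdown lines, *LAMB2*, *COL4A5* and *COL4A6* lie above it in both, and *ITGA1*, *ITGB2*, *ITGB5* and *LAMB1* below it in both.

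Of the 4 adhesive glycoproteins, 0 were called in the 6 libraries of the sh1-*TUG1* comparison by edgeR or DESeq2. By edgeR, 0 had an unadjusted p under 0.05 there, beside 4854 of all 13017 genes. In sh2-*TUG1* 2 rose and 2 fell, where 21.6% of all genes rose and 21.9% fell. Fibronectin, from *FN1* (chr2:215360440-215436172, minus strand), had 12308, 11449.8 and 11245 CPM in the sh-Con libraries, 12039, 11944 and 11561 CPM for sh1-*TUG1*, and 13329.8, 13468 and 14015 CPM for sh2-*TUG1*. The sh2-*TUG1* libraries lay above all others, and the log2(fold change) was 0.22 (SE 0.0436, adjusted p = 0.00311) in sh2-*TUG1* and 0.02 (SE 0.0385, adjusted p = 0.735) in sh1-*TUG1*. *THBS1*, whose product binds matrix and activates latent TGF-β, was also higher in sh2-*TUG1*, at 132.5 to 140.2 CPM against 106.8 to 120.2 CPM in sh-Con (0.26, adjusted p = 0.00547). In sh1-*TUG1* its value was −0.09 (adjusted p = 0.273). Without sh-Con replicate 1, *THBS1* was called lower in sh1-*TUG1* (−0.14, adjusted p = 0.0448, edgeR).

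*SPARC*, a collagen-binding matricellular protein, had 36.6, 30.2 and 31.4 CPM in the sh-Con libraries, 32.2, 30.7 and 35.2 CPM for sh1-*TUG1*, and 19.996, 20.2 and 24.6 CPM for sh2-*TUG1*. The sh2-*TUG1* libraries were below the other 6, with −0.60 (SE 0.101, adjusted p = 0.00122) in sh2-*TUG1* and −0.0018 (SE 0.0838, adjusted p = 0.989) in sh1-*TUG1*. *THBS3*, another thrombospondin, had 3.75, 3.05 and 3.38 CPM in the sh-Con libraries, 3.13, 2.76 and 3.05 CPM for sh1-*TUG1*, and 1.72, 1.32 and 1.58 CPM for sh2-*TUG1*, with a log2(fold change) of −1.14 (SE 0.213, adjusted p = 0.002196) in sh2-*TUG1*, and it shares 146 exon bases with *MTX1* on the other strand, which was not called (0.09, adjusted p = 0.421).

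Among the 10 integrin alpha chains, 3 fell in sh1-*TUG1* and 0 rose, where 12.3% of all genes fell and 12.5% rose. In sh2-*TUG1* 2 fell and 1 rose, where 2 of 10 is near the 21.9% of all genes called lower. The 2 collagen-receptor chains *ITGA1* and *ITGA2* are neighbours on chromosome 5 and differed. *ITGA1* (chr5:52787896-52959210, plus strand) had 79.5, 77.5 and 76.1 CPM in the sh-Con libraries, 57.1, 58.5 and 56.8 CPM for sh1-*TUG1*, and 38.7, 41.2 and 38.4 CPM for sh2-*TUG1*, falling with no overlap between the groups at a log2(fold change) of −0.44 (SE 0.0486, adjusted p = 0.000232) and −0.98 (SE 0.0552, adjusted p = 1.8e-06). *PELO*, a ribosome rescue gene inside *ITGA1* that shares 475 exon bases on the same strand, had −0.36 and −0.04 (adjusted p = 0.00207 and 0.606). *ITGA2* (chr5:52989326-53094779, plus strand) had 330.3, 344 and 328 CPM in the sh-Con libraries, 228, 235 and 223 CPM for sh1-*TUG1*, and 351, 344 and 343 CPM for sh2-*TUG1*. It was lower in sh1-*TUG1* alone, at a log2(fold change) of −0.55 (SE 0.0418, adjusted p = 2.46e-05), while sh2-*TUG1* overlapped sh-Con at 0.05 (SE 0.04303, adjusted p = 0.409), and the lines differed by 0.60 (SE 0.0383, adjusted p = 5.67e-07) by edgeR.

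*ITGB1*, the partner of both, had 873, 892 and 843 CPM in the sh-Con libraries, 639, 699 and 703 CPM for sh1-*TUG1*, and 770.5, 815 and 848 CPM for sh2-*TUG1*. It too was lower in sh1-*TUG1*, at a log2(fold change) of −0.35 (SE 0.0473, adjusted p = 0.000649), and overlapped sh-Con in sh2-*TUG1* (−0.10 (SE 0.0486, adjusted p = 0.116)), where scaling by library size alone gave −0.14 and an adjusted p of 0.0429. The laminin-receptor chain *ITGA6* had 264, 279 and 269.9 CPM in the sh-Con libraries, 238, 248 and 236 CPM for sh1-*TUG1*, and 258, 259.5 and 254 CPM for sh2-*TUG1*. Its change was −0.17 in sh1-*TUG1* (adjusted p = 0.0159, and 0.0675 and 0.0728 without sh1-*TUG1* replicate 1 and 3) and −0.08 in sh2-*TUG1* (adjusted p = 0.176).

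*ITGAV*, the alpha chain of receptors for vitronectin and fibronectin, was higher in sh2-*TUG1* at 274.3 to 311.1 CPM, against 187.3 to 230.4 CPM in sh-Con and 220.6 to 233.2 CPM in sh1-*TUG1* (log2(fold change) 0.47, adjusted p = 0.00162). Its beta partner *ITGB5* was lower in both lines (−0.30 and −0.34, adjusted p = 0.00122 and 0.000591), from 216.7 to 231.7 CPM in sh-Con to 172.7 to 188.5 CPM in the 6 knockdown libraries. *ITGB4*, the hemidesmosome partner of *ITGA6*, had 17.9, 13.96 and 13.98 CPM in the sh-Con libraries, 15.2, 14.9 and 13.7 CPM for sh1-*TUG1*, and 9.29, 9.07 and 11.8 CPM for sh2-*TUG1*, and fell in sh2-*TUG1* at a log2(fold change) of −0.60 (SE 0.139, adjusted p = 0.00679).

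The leukocyte integrin *ITGB2* (chr21:44885953-44931989, minus strand) had 50.7, 43.9 and 47.95 CPM in the sh-Con libraries, 36.7, 33.6 and 31.6 CPM for sh1-*TUG1*, and 23.8, 26.3 and 26.1 CPM for sh2-*TUG1*. The groups did not overlap, and the log2(fold change) was −0.48 (SE 0.0739, adjusted p = 0.00137) in sh1-*TUG1* and −0.90 (SE 0.0721, adjusted p = 1.39e-05) in sh2-*TUG1*. Its partner *ITGAL* had 2.41, 2.01 and 1.37 CPM in the sh-Con libraries, 1.32, 1.27 and 1.99 CPM for sh1-*TUG1*, and 0.554, 0.688 and 0.777 CPM for sh2-*TUG1*, a level that rests on 18 to 79 counts per library, and was lower in sh2-*TUG1* (−1.51 (SE 0.291, adjusted p = 0.00264)). Of 5 leukocyte markers only *CD68* and *ITGB2* itself were listed, and their sum was 104.03 to 122.4 CPM in the controls, 65.3 to 74.1 CPM in sh1-*TUG1* and 41.4 to 50.1 CPM in sh2-*TUG1*. *PTPRC*, which every leukocyte uses, was not in the tables.

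Further alpha chains were scarce and were not called against sh-Con in either line by edgeR's test of 6 libraries. *ITGA10*, a collagen receptor chain, had 4.48, 3.67 and 6.0005 CPM in the sh-Con libraries, 6.297, 6.18 and 4.48 CPM for sh1-*TUG1*, and 2.92, 3.41 and 3.21 CPM for sh2-*TUG1*, and *ITGA3*, a laminin receptor chain, had 4.12, 4.11 and 5.41 CPM in the sh-Con libraries, 5.096, 3.94 and 4.802 CPM for sh1-*TUG1*, and 1.54, 3.14 and 3.52 CPM for sh2-*TUG1*. Against sh-Con, sh2-*TUG1* had log2(fold change) values of −0.57 and −0.73 (adjusted p = 0.05305 and 0.0654), and both were called lower by DESeq2 (0.0304 and 0.0222) and by 1 edgeR fit of all 9 libraries (0.0407 and 0.0393). Both had lower values in sh2-*TUG1* than in sh1-*TUG1*, by −0.83 (SE 0.207, adjusted p = 0.00736) and −0.75 (SE 0.264, adjusted p = 0.0387), although *ITGA3* was not called without sh1-*TUG1* replicate 1 or 3 or sh2-*TUG1* replicate 1 or 2 (adjusted p = 0.0509 to 0.106). *ITGA5*, the fibronectin receptor chain, stood at 0.688 to 2.07 CPM in all libraries, with no call. *ITGAE* pairs with a beta chain of intraepithelial lymphocytes, and *ITGA7* is a laminin receptor chain of muscle. With no library left out, neither was called in any of the 3 comparisons by edgeR with TMM scaling. Against sh-Con their log2(fold change) values were 0.31 and −0.04 for *ITGAE* and 0.46 and 0.14 for *ITGA7* (adjusted p = 0.145, 0.847, 0.215 and 0.696). Between the lines *ITGAE* differed by −0.34 (adjusted p = 0.06298), and was called lower in sh2-*TUG1* by DESeq2 (0.0475) and with scaling by library size alone (0.0336). It was also called lower there by edgeR without sh1-*TUG1* replicate 1 (−0.45, adjusted p = 0.0233). *ITGB1BP1*, whose product binds the tail of the beta chain, differed by 0.02 in each line. Its exons share 2209 bases with *ASAP2* on the other strand. *ASAP2* was at 48.2 CPM in sh-Con and had −0.28 and −0.15 (adjusted p = 0.0164 and 0.119, edgeR). *ITGB3BP*, which encodes a centromere protein, was lower in sh2-*TUG1* (−0.55, adjusted p = 0.0165), but not without sh-Con replicate 3 (0.0610) or sh2-*TUG1* replicate 1 (0.0543). *ITGB3BP*, at a mean of 5.99 CPM in sh-Con, shares 197 exon bases with *PGM1* on the other strand. *PGM1* was at 122 CPM in sh-Con and was also lower in sh2-*TUG1* (−0.44, adjusted p = 0.000534, edgeR).

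The metalloproteinases were led by *MMP15*, a membrane-anchored enzyme with 25.2 ± 0.0809 CPM per kb in sh-Con. It was at 110.9 to 111.6 CPM in the controls, 121.5 to 127.1 CPM in sh1-*TUG1* and 89.9 to 94.4 CPM in sh2-*TUG1*, a log2(fold change) of 0.16 and −0.27 (adjusted p = 0.0226 and 0.00139). The rise in sh1-*TUG1* was not called without any 1 library except sh-Con replicate 1 (adjusted p = 0.0526 to 0.0905), and with the GC offset it was 0.083 (0.251). *MMP11* (chr22:23768226-23784316, plus strand), a stromelysin often raised in carcinomas, had 10.3, 9.91 and 11.6 CPM in the sh-Con libraries, 17.7, 16.4 and 16.2 CPM for sh1-*TUG1*, and 6.55, 5.298 and 4.25 CPM for sh2-*TUG1*. As with *LAMA5*, all sh1-*TUG1* libraries were above and all sh2-*TUG1* libraries below the controls. The changes were 0.66 (SE 0.0936, adjusted p = 0.000932) and −0.99 (SE 0.164, adjusted p = 0.00111), and the lines differed by −1.65 (SE 0.1398, adjusted p = 3.79e-06), the largest such difference of the 60 genes. *MMP11* shares 218 exon bases with *CHCHD10* on the other strand, which was called in neither line (0.198 and 0.0093, adjusted p = 0.394 and 0.965).

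*MMP14*, the best known membrane-type enzyme, was lower in sh2-*TUG1* (−0.36, adjusted p = 0.0131, and 0.0519 without sh2-*TUG1* replicate 1). *MMP3*, another stromelysin, had 1.71, 1.45 and 1.5001 CPM in the sh-Con libraries, 0.967, 2.096 and 1.41 CPM for sh1-*TUG1*, and 0.708, 0.569 and 1.09 CPM for sh2-*TUG1*, from 19 to 76 counts per library. It was lower in sh2-*TUG1* at a log2(fold change) of −0.97 (SE 0.286, adjusted p = 0.0217), a call that was lost without sh-Con replicate 1 or 3 or sh2-*TUG1* replicate 1 or 2 (adjusted p = 0.0530 to 0.0702). *MMP2*, a gelatinase, had 2.38, 1.12 and 1.26 CPM in the sh-Con libraries, 3.25, 2.18 and 2.63 CPM for sh1-*TUG1*, and 1.26, 0.658 and 1.09 CPM for sh2-*TUG1*. Neither line was called against sh-Con, with which both overlapped, but sh2-*TUG1* was below sh1-*TUG1* by −1.42 (SE 0.329, adjusted p = 0.00475). Without sh-Con replicate 1, *MMP2* was called higher in sh1-*TUG1* (1.16, adjusted p = 0.0108, edgeR). *MMP19*, *MMP24* and *MMP24OS* were called in neither line against sh-Con.

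Of the 7 ADAMTS and ADAMTSL genes, 0 were called in the 6 libraries of the sh1-*TUG1* comparison by edgeR without a GC offset or by DESeq2. By edgeR, 3 of the 7 had an unadjusted p under 0.05 there, beside 4854 of all 13017 genes. In sh2-*TUG1* 3 fell and 1 rose, where 21.9% of all genes fell and 21.6% rose. The ADAMTSL proteins lack the protease domain, and *ADAMTSL4*, which binds the microfibrils of the matrix, had 18.5, 14.3 and 15.5 CPM in the sh-Con libraries, 17.9, 19.7 and 19.1 CPM for sh1-*TUG1*, and 7.72, 8.47 and 7.75 CPM for sh2-*TUG1*. The sh2-*TUG1* libraries lay below the other 6, at a log2(fold change) of −1.01 (SE 0.116, adjusted p = 0.000132) against sh-Con. *ADAMTSL5* had 2.87, 1.66 and 2.44 CPM in the sh-Con libraries, 2.26, 2.399 and 2.15 CPM for sh1-*TUG1*, and 3.75, 4.101 and 4.07 CPM for sh2-*TUG1*, higher in sh2-*TUG1* without overlap (0.77 (SE 0.226, adjusted p = 0.0204)), but not called without sh-Con replicate 2 (adjusted p = 0.0546) or sh2-*TUG1* replicate 2 (0.0553).

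*ADAMTS4*, an aggrecanase, had 1.98, 2.28 and 2.22 CPM in the sh-Con libraries, 1.93, 2.37 and 1.99 CPM for sh1-*TUG1*, and 1.32, 1.08 and 1.11 CPM for sh2-*TUG1*, and was lower in sh2-*TUG1* at a log2(fold change) of −0.89 (SE 0.219, adjusted p = 0.00948). *ADAMTS2*, which trims the ends of procollagen, had 1.83, 1.18 and 1.85 CPM in the sh-Con libraries, 1.201, 1.296 and 1.06 CPM for sh1-*TUG1*, and 0.923, 1.02 and 0.337 CPM for sh2-*TUG1*. Its fall in sh2-*TUG1* (−1.11 (SE 0.386, adjusted p = 0.0413)) was lost without sh-Con replicate 1 or 3 or sh2-*TUG1* replicate 1 or 3 (adjusted p = 0.0608 to 0.114). *ADAMTS13*, the protease of von Willebrand factor, had 1.74, 1.45 and 1.69 CPM in the sh-Con libraries, 2.02, 1.71 and 2.47 CPM for sh1-*TUG1*, and 0.769, 1.35 and 1.01 CPM for sh2-*TUG1*, and *ADAMTS6* had 0.824, 1.301 and 1.23 CPM in the sh-Con libraries, 1.79, 2.04 and 1.72 CPM for sh1-*TUG1*, and 0.892, 1.05 and 1.17 CPM for sh2-*TUG1*. These were called in neither line against sh-Con in 6 libraries, and differed between the lines by −0.99 (SE 0.2503, adjusted p = 0.00787) and −0.83 (SE 0.235, adjusted p = 0.0138). In 1 fit of all 9 libraries *ADAMTS6* was called higher in sh1-*TUG1* (0.72, adjusted p = 0.0392, beside 0.0601 in 6 libraries), and without sh2-*TUG1* replicate 2 *ADAMTS13* was called lower in sh2-*TUG1* (−0.86, adjusted p = 0.0409, beside 0.0764). *ADAMTSL2*, another member without a protease domain, was called in none of the 3 comparisons (0.27 and 0.15 against sh-Con, adjusted p = 0.117 and 0.415).

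Of the 3 protease inhibitors, 2 were lower in sh2-*TUG1*, where 21.9% of all genes were. *TIMP1* was at 48.97 to 58.8 CPM in sh-Con and 38.95 to 46.2 CPM in sh2-*TUG1* (−0.31, adjusted p = 0.0146, and 0.0641 without sh2-*TUG1* replicate 1), and *TIMP2* at 114.3 to 125.8 and 89.5 to 96.1 CPM (−0.36, adjusted p = 0.000751). In sh1-*TUG1* their values were −0.17 and 0.07, with no call (adjusted p = 0.0991 and 0.397). *TIMP3*, which stays bound to the matrix, had 136, 136 and 189 CPM in the sh-Con libraries, 185, 184 and 226 CPM for sh1-*TUG1*, and 152, 152 and 197 CPM for sh2-*TUG1*, with overlap of all groups and no call (0.36 and 0.11, adjusted p = 0.0661 and 0.536). Without sh-Con replicate 3 it was called higher in sh1-*TUG1* (0.53, adjusted p = 0.00336, edgeR).

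The rest of the pathway was read from a list of 116 other genes for collagen processing, matrix glycoproteins, matrix receptors, integrin adaptors and surface proteases. In sh1-*TUG1*, 85 were tested, of which 11 rose and 31 fell, and in sh2-*TUG1*, 84 were tested, of which 16 rose and 39 fell. Among all genes 12.5% rose and 12.3% fell in sh1-*TUG1*, and 21.6% and 21.9% in sh2-*TUG1*. DEGs of the list were 2 higher and 8 lower in sh1-*TUG1*, where 2.44% and 2.52% of all genes were, and 0 higher and 19 lower in sh2-*TUG1*, where 4.35% and 8.97% were. Of these, 6 were lower DEGs in both lines, which share their control libraries. The share of all genes that were lower DEGs in both was not counted. *LOX*, which crosslinks collagen, had log2(fold change) values of −1.08 (SE 0.0531, adjusted p = 1.59e-06) in sh1-*TUG1* and −1.43 (SE 0.0611, adjusted p = 5.18e-07) in sh2-*TUG1* by edgeR's quasi-likelihood test. Of the others, given as log2(fold change) in the same order, *P4HA1*, which hydroxylates the prolines of collagen, had −0.73 and −0.78. *MATN3*, a cartilage glycoprotein, had −0.71 and −1.91, *TNS1*, an adaptor between integrins and actin, had −1.15 and −0.73, and *BGN*, which encodes the proteoglycan biglycan, had −1.18 and −1.38. Collagen-processing genes were called lower for 10 of 16 in each line and higher for 2, to be read against the same shares of all genes.

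The transcripts of the 60 genes were rich in G and C. The median GC content of their representative transcripts was 57.7%, against 49.6% for 11808 genes of both tables, and 27 of the 60 fell in the GC quintile with the highest values. In sh2-*TUG1* the share of all genes that were lower DEGs went from 6.11% in the lowest GC quintile to 12% in the highest. In the highest quintile, the 27 genes had a median log2(fold change) of −0.37 in sh2-*TUG1*, beside −0.0069 for all genes there. The median of the 14 genes of the next lower quintile was −0.41, and in the 3 lowest quintiles, with 5, 5 and 9 genes, the medians were closer to 0, at −0.10, −0.079 and −0.061. With the offset for GC content, 10 of the 60 genes were called higher and 31 lower in sh2-*TUG1*. In sh1-*TUG1* that offset ended the calls of *COL4A6*, *COL9A3* and *MMP15* (adjusted p = 0.0521, 0.0657 and 0.251, edgeR) and brought *ADAMTS6*, *HSPG2* and *TIMP1* past the threshold (0.0439, 0.0467 and 0.0206), and in sh2-*TUG1* it brought *ITGA6* past it (0.0499).

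MicroRNA seed matches are given because the study concerned a microRNA of liver and because the miR-29 family is known for sites in collagen transcripts. The mature sequences from RefSeq follow, with the seed, bases 2 to 8, in capitals. The 3 miR-29 members share their seed.

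hsa-miR-122-5p: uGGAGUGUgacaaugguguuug
hsa-miR-29a-3p: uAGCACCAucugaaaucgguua
hsa-miR-29b-3p: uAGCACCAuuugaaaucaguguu
hsa-miR-29c-3p: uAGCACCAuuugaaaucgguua

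The letters TGGTGCT, the complement of the miR-29 seed, were found in the 3′ UTR of 18 of 59 genes with an annotated 3′ UTR in GENCODE 29 (30.5%), beside 13.9% of 11550 genes, at median 3′ UTR lengths of 1101 and 986 bases. Both *COL4A5* and *COL4A6*, which rose, and *COL2A1*, *COL7A1*, *HSPG2* and *CEMIP*, which fell in sh2-*TUG1*, held it. A stretch of 23 bases around a match in these genes is given, with the matching letters in capitals, on the strand of the transcript and with GRCh38 positions.

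*COL4A5*, chrX:108696476-108696498: gccgtcaaTGGTGCTactatata
*COL4A6*, chrX:108156764-108156786: tgtcaagcTGGTGCTactgtttg
*COL2A1*, chr12:47973032-47973054: ctacacaaTGGTGCTattctgtg
*COL7A1*, chr3:48564315-48564337: cctcccctTGGTGCTagaggctt
*HSPG2*, chr1:21822468-21822490: gatgccgcTGGTGCTcaggaaga
*CEMIP*, chr15:80949075-80949097: agagacccTGGTGCTgccacctg

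Of the 18 genes with the letters, 3 rose and 7 fell in sh2-*TUG1*, with a median log2(fold change) of −0.25, and the 41 genes without had a median of −0.36. Over all genes those medians were 0.047 with the letters and −0.011 without, and 21.6% of all genes rose and 21.9% fell. In sh1-*TUG1*, 4 of the 18 rose and 6 fell, where 12.5% of all genes rose and 12.3% fell. The medians there were −0.051 and 0.021 for genes with and without the letters, beside 0.022 and 0.0011 over all genes. The letters ACACTCC, the complement of the miR-122-5p seed, were in 4 of the 59 genes (6.78%), *ADAMTS2*, *ITGAL*, *LAMC1* and *LAMC3*, beside 7.22% of all. Of these 4, *LAMC1* was higher in sh1-*TUG1*, and the other 3, at 13 to 106 counts per library, were lower in sh2-*TUG1*. Over all genes, the median log2(fold change) in sh2-*TUG1* was 0.026 with the letters ACACTCC and −0.0051 without. In sh1-*TUG1* those medians were 0.011 and 0.0041. The matches are of letters in the annotated transcript and no microRNA was measured in these libraries.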

How the data were processed

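RNA-seq was analysed in 9 HepG2 libraries, which the sample labels put in the groups sh-Con, sh1-*TUG1* and sh2-*TUG1* with 3 libraries per group. The authors deposited raw read counts per gene in 1 table for each knockdown line, with its 3 libraries and the 3 control libraries. Per the labels the libraries were made with the NEBNext Ultra kit, and the submitters' processing notes name HISAT2, StringTie and GRCh38, without versions. The counting tool and strand setting are not given in the sources used here. The FPKM values, false discovery rates and log2 fold changes of the authors' own comparisons in the same tables were not used. *TUG1* was not analysed here.

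Counts were fitted in R 4.3.3 with edgeR 4.0.16 (TMM, quasi-likelihood test, filterByExpr, which removed 0 genes), each line against sh-Con in 6 libraries and the 2 lines against each other in 9. P-values were Benjamini–Hochberg adjusted over all genes. Depth was 33051617 to 39393293 counts per library. Positions, exon lengths, GC content and 3′ UTRs came from GENCODE 29, and promoters and microRNAs from RefSeq GRCh38.p14. The tests were checked on simulated data. Members and lists were chosen with earlier results of these data known. Members given in every library were those that were DEGs in at least 1 of the 3 comparisons, *FN1*, *SPARC*, *HSPG2*, *AGRN*, *CEMIP* and the 5 genes of highest level per kb in sh-Con. Genes of the pathway list were named where they were DEGs in the same direction in both lines, apart from 1 gene that is not reported here. Alternatives were DESeq2 1.42.0, scaling by RLE factors or by library size alone, no filter on low counts, a minimum of 1 CPM in 3 libraries, a test against a fold change of 1.5, 1 fit of 9 libraries, the 6 knockdown libraries alone, a replicate block, each library left out and, chosen after seeing the data, a GC offset with 20 bins.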

Additional observations from a re-analysis of the deposited data

Results flagged for a closer look

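For 23 of the 60 genes the effects of the 2 hairpins differed by edgeR's quasi-likelihood test of no difference in a fit of all 9 libraries (adjusted p under 0.05 over 12854 genes) with an estimated fold change over 1.5, as did 10.6% of all genes. Tested against a fold change of 1.5 itself, 7 of the 23 passed. A negative log2 value means a lower level in sh2-*TUG1* than in sh1-*TUG1*. Among matrix proteins it was −1.39 for *COL9A2*, −1.36 for *CEMIP*, −1.21 for *COL2A1*, −1.05 for *HSPG2*, −0.996 for *LAMA5*, −0.95 for *THBS3*, −0.84 for *COL26A1*, −0.76 for *LAMC3*, −0.68 for *COL18A1*, −0.60 for *SPARC* and 0.68 for *LAMA3*. Among integrin chains it was −1.17 for *ITGAL*, −0.83 for *ITGA10*, −0.75 for *ITGA3* and 0.60 for *ITGA2*. Among proteases and their relatives it was −1.65 for *MMP11*, −1.42 for *MMP2*, −1.24 for *ADAMTSL4*, −0.99 for *ADAMTS13*, −0.91 for *MMP3*, −0.84 for *ADAMTS4*, −0.83 for *ADAMTS6* and 0.81 for *ADAMTSL5*. *LAMC3* was not called without sh1-*TUG1* replicate 2 or 3 or sh2-*TUG1* replicate 2 or 3 (adjusted p up to 0.0932), *MMP3* not without sh1-*TUG1* replicate 2 or 3 or sh2-*TUG1* replicate 1 or 2 (up to 0.184, and 0.0598 in the 6 knockdown libraries alone), and *ITGA3* not without sh1-*TUG1* replicate 1 or 3 or sh2-*TUG1* replicate 1 or 2 (up to 0.106). Each hairpin is represented by 1 line, so hairpin and line cannot be told apart.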

How the results depend on the processing

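Counts of called genes stayed within 1.5 times their value under DESeq2, RLE factors, library size without TMM, both choices of filter on low counts, the joint or separate fits and the GC offset, and no gene that was called changed direction. The test against a fold change of 1.5 left 1 of 4 DEGs in sh1-*TUG1*, 9 of 22 in sh2-*TUG1* and 7 of 23 between the lines, a stricter test by its construction. With 1 library left out at a time, DEGs numbered 4 to 5 in sh1-*TUG1*, 17 to 22 in sh2-*TUG1* and 18 to 23 between the lines. Higher genes then numbered 5 to 12, 6 to 10 and 7 in each fit, and lower genes 10 to 12, 25 to 28 and 25 to 28. In sh2-*TUG1*, library size without TMM ended the calls of *COL27A1*, *COL4A6* and *COL6A1* (adjusted p = 0.0504, 0.0505 and 0.0752), RLE factors that of *AGRN* (0.0511) and DESeq2 that of *COL6A1* (0.0535). Calls gained in sh2-*TUG1*, all lower, were *ITGA10* and *ITGA3* by DESeq2 (0.0304 and 0.0222) and in 1 fit of 9 libraries (0.0407 and 0.0393), and *ITGA10* and *ITGB1* with library size alone (0.0439 and 0.0429). In sh1-*TUG1*, 1 fit of 9 libraries gained *ADAMTS6* (0.0392). Between the lines, *AGRN* and *ITGAE* were gained by DESeq2 (0.0359 and 0.0475) and, with *COL27A1* and *TIMP1*, with library size alone, which ended the call of *MMP24OS* (0.0535). The lowest counts of higher genes came without replicate 2 of sh1-*TUG1* and of sh2-*TUG1*.

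Replicate numbers did not pair the samples: deviations of same-numbered libraries correlated at −0.33 to 0.011 over 11451 genes, and none correlated best with its own number. With a replicate block, 9 genes rose and 11 fell in sh1-*TUG1*, 8 rose and 30 fell in sh2-*TUG1*, and 7 and 29 between the lines. The block ended the calls of *LAMC1* and *MMP15* in sh1-*TUG1* (adjusted p = 0.0808 and 0.0508, edgeR), of *ADAMTS2*, *COL27A1* and *COL6A1* in sh2-*TUG1* (0.0533, 0.0685 and 0.0793), and of *MMP14*, *MMP24OS* and *MMP3* between the lines (0.0634, 0.0593 and 0.0667). It gained *TIMP3* in sh1-*TUG1* (0.00193), *ITGA3* in sh2-*TUG1* (0.0357), and *AGRN* and *TIMP3* between the lines (0.0397 and 0.00277). Low counts limit several genes, among them *MMP3*, *ITGAL*, *ADAMTS2*, *MMP2*, *ADAMTS4*, *ADAMTS6*, *ADAMTS13* and *LAMC3*, at 13 to 111 counts per library. *THBS3* and *ADAMTSL5* had 44 to 157.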

Other observations

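*TIMP3* was singled out after its values were seen. Replicate 3 was the highest library in each of the 3 groups, with 189.4, 225.6 and 196.9 CPM beside 136.2 to 184.5 CPM in the other 6 libraries, although replicate numbers did not pair the samples over all genes. With the replicate number as a block, the log2(fold change) of *TIMP3* was 0.37 in sh1-*TUG1* (adjusted p = 0.00193 by edgeR), beside 0.36 and an adjusted p of 0.0661 without the block. Between the lines the block gave −0.25 for sh2-*TUG1* against sh1-*TUG1* (adjusted p = 0.00277), beside an adjusted p of 0.168 without it. The block takes out the pattern for which *TIMP3* was picked, so its adjusted p-values are no independent support. The share of all genes with that pattern was not counted. Without sh-Con replicate 3 the adjusted p in sh1-*TUG1* was 0.00336.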
